A study of Homo sapiens with 3 samples.

Results

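The regions described here are Pol II sites called in LNCaP cells given the CK2 inhibitor TBBz that had no counterpart in vehicle-treated cells and no neighbour in their own list. They were chosen by position: a region of the TBBz list was taken when no region centre of the DMSO list lay within 2000 bp and no other TBBz centre lay within 10000 bp. Of the 24782 TBBz Pol II regions, 3218 met both conditions, which is 13.0% (95% interval 12.6 to 13.4%). They are called lone TBBz-only regions below. Because both Pol II lists chose them, their absence from the DMSO list and their spacing are descriptions and carry no test. The CK2α list and the order of the TBBz list were not used in the choice. The choice still bears on CK2α. CK2α regions within 1 kb of a DMSO region, 71.8% of the CK2α list, cannot lie within 1 kb of a lone TBBz-only region. Place in the list moves with presence in the other list, and the spacing condition shapes the spread over the genome. Place, spread and nearness to CK2α are therefore descriptions too.

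The data were ChIP-seq region lists from LNCaP, an androgen-responsive human prostate carcinoma line, with 1 library for each of 3 groups. All cells spent 3 days in hormone-depleted serum and then received 100 nM dihydrotestosterone (DHT). The Pol II groups received either DMSO or 25 μM TBBz for 2.5 hours, with DHT in the last 1.5 hours. The CK2α group received DHT without a labelled inhibitor or vehicle, for 2.5 hours by its treatment label and 90 min by the protocol. The labels describe 1 cell line at passages 40 to 45, and TBBz is the only CK2 inhibitor used, so effects of the compound other than CK2 inhibition cannot be told apart. With 1 library per group no difference could be set against replicate spread, and conditions were not tested against each other. The intervals given are exact 95% binomial (Clopper-Pearson) intervals, or order-statistic intervals for medians, and cover counting error only. Positions are in hg19.

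RNA polymerase II (Pol II) transcribes protein-coding genes, and in many of them it gathers just after the start site before it is released into elongation. CK2 is a kinase built of catalytic and regulatory subunits, with many nuclear substrates, among them factors that govern elongation, and the series asks about its part in that step. TBBz is a brominated benzimidazole that competes for the ATP site of CK2. A ChIP-seq region marks a place where tags pile up locally, so a region that stands alone is a point of Pol II signal with no other called point near it. No gene annotation of hg19 was used, so whether the regions are promoters, enhancers or gene bodies was not tested.

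The Pol II libraries differed in depth and in the threshold for calling a region. They held 22345614 tags with TBBz and 15466579 with DMSO, and a region needed at least 13 and 11 tags respectively. Per 10000000 tags these thresholds were 5.82 with TBBz and 7.11 with DMSO. A site that just reached the TBBz threshold would hold 9.0 tags in the DMSO library if its share of all tags were the same, which is below that library's threshold. The called regions held a mean of 113.6 tags each with TBBz and 48.1 with DMSO. A filter that asked for 4-fold more signal than in the 10 kb around a candidate took away 35.3% of the candidates with TBBz and 53.7% with DMSO. A lone TBBz-only region is therefore not shown to lack Pol II in vehicle-treated cells. The part of depth, thresholds and this filter in the choice of the regions was not tested.

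The mirrored rule, applied to the DMSO list, gave 1991 lone DMSO-only regions, which is 9.13% of its 21819 regions (8.75 to 9.51%). The share was higher with TBBz on 23 of the 24 chromosomes. This direction depended on list length. When the TBBz list was shortened to its first 21819 regions, it gave 1851 lone TBBz-only regions (8.48%) against 2572 lone DMSO-only regions (11.8%), and the TBBz share was higher on 0 of the 24 chromosomes. That setting removes the end of the TBBz list alone. Without the last 10% of both lists the shares were 11.5% with TBBz and 7.73% with DMSO.

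Lone TBBz-only regions stood late in the TBBz list. The score is the same for every region, and the order of the list is taken here to follow signal strength, which no value at hand could test. The median place was 86.9% of the list (86.4 to 87.4%), with quartiles of 78.1% and 94.0%. The first 50% of the list held 28 of the 3218 regions (0.870%), and the last 10% held 1289 of them (40.1%). They made up 2.34% of all TBBz regions between 50 and 60% of the list, 10.4% between 60 and 70%, 24.7% between 70 and 80%, 39.3% between 80 and 90% and 52.0% in the last 10%. TBBz-only regions with another TBBz region within 10 kb, here called TBBz-only regions in strings, made up 11.9% between 60 and 70% and 18.9% in the last 10%. They numbered 2018, stood at a median of 77.7% (76.5 to 78.9%), and 13.3% of them were in the first 50%. Lone DMSO-only regions stood as late in their own list, at a median of 87.8% (87.2 to 88.3%).

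**Figure D1:**
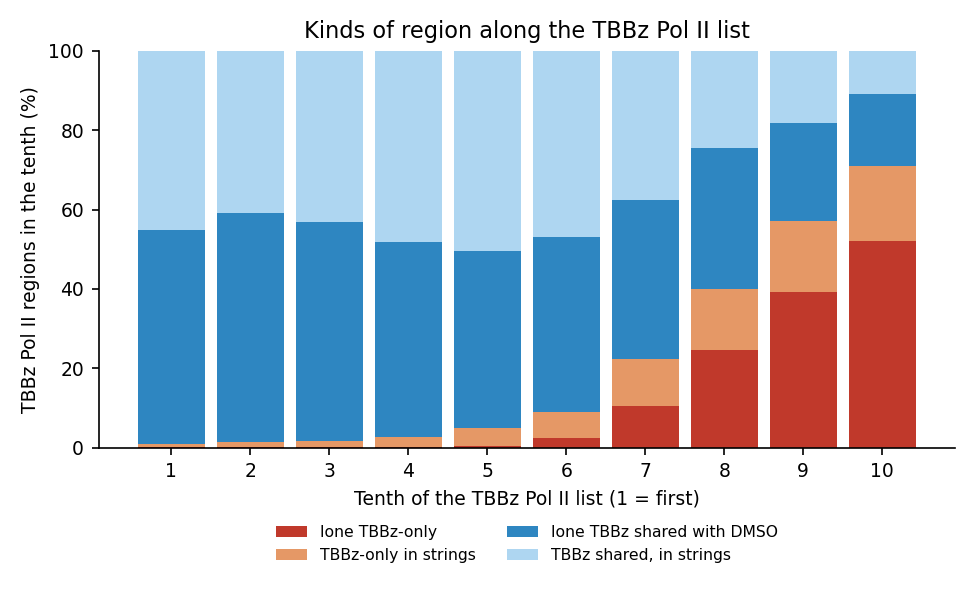
Share of each kind of region (vertical axis, %) in each successive 10% of the TBBz Pol II list (horizontal axis), as stacked bars that sum to 100%. Lone TBBz-only regions, in red, fill 0.242% of the first bar and 52.0% of the last.

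Only a few lone TBBz-only regions stood early in the list. The first 4 were chr10:134210441-134210641 at place 533, chr17:79829283-79829483 at place 651, chr16:577222-577422 at place 702 and chr22:46465916-46466116 at place 822. Their nearest DMSO centres were 10958, 7920, 32510 and 16339 bp away. These were not empty neighbourhoods: within 50 kb of each there were between 4 and 9 DMSO regions. The following 6 were chr8:143820744-143820944, chr11:1593146-1593346, chr19:51358145-51358345, chr1:2344165-2344365, chr16:30366431-30366631 and chr4:1161312-1161512, at places 1760 to 5701. None of the 10 had a CK2α centre within 1 kb, which allows a share of up to 30.8%. Of the first 10 lone DMSO-only regions, 5 had one (18.7 to 81.3%).

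One of these 10, chr19:51358145-51358345 at place 3261, had a lone DMSO-only region as its neighbour. The nearest DMSO centre, 6672 bp away, belonged to chr19:51364817-51365017, which is the first lone DMSO-only region of all and stood at place 172 of the DMSO list. The nearest CK2α centre lay 4979 bp from the TBBz region and 7229 bp from the DMSO region.

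Early lone TBBz-only regions often lay near chromosome ends, a pattern that was seen in the named regions and then counted. Of the first 10, 8 lay within 5 Mb of an end, measured to position 0 or to the last region of any list. Of the 28 in the first 50% of the list, 14 did (50%, 30.6 to 69.4%), against 13.1% of those in the last 50% (11.9 to 14.3%). The 28 include the first 10 that prompted the count, and the other 18 gave 6. In the first 30% of the list it was 11 of 13, and between 30 and 50% it was 3 of 15. For TBBz-only regions in strings the shares were 36.2% (30.4 to 42.3%) and 15.5% (13.9 to 17.3%). Lone TBBz regions with a DMSO partner within 2 kb, called lone shared regions here, had shares with overlapping intervals, 12.0% (11.2 to 12.8%) and 11.3% (10.3 to 12.3%), although in the first 10% of the list theirs was 16.6% (14.6 to 18.7%). Shared TBBz regions in strings had 19.1% (18.0 to 20.1%) and 13.4% (12.2 to 14.5%), so a higher share early in the list was not limited to TBBz-only regions. Over all lone TBBz-only regions the share was 13.4% (431 regions), close to the 14.4% of all TBBz regions. Of the 19 lone DMSO-only regions in the first 50% of their list, 3 lay near an end (15.8%, 3.38 to 39.6%).

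The distance to Pol II of the vehicle library varied widely. The median distance from a lone TBBz-only region to the nearest DMSO centre was 35500 bp (33570 to 37527 bp), with quartiles of 17953 and 86744 bp. The nearest other TBBz centre was at a median of 32099 bp. The DMSO centre was within 10 kb for 144 regions (4.47%), between 10 and 20 kb for 788, between 20 and 50 kb for 1023, between 50 and 100 kb for 564 and over 100 kb for 699 (21.7%). No region of any of the 3 lists lay within 50 kb of 909 of them (28.2%, 26.7 to 29.8%). By construction no other TBBz region can meet this, so the same 909 were 3.67% of all TBBz regions. For lone DMSO-only regions the share was 18.7% (17.0 to 20.5%).

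**Figure D2:**
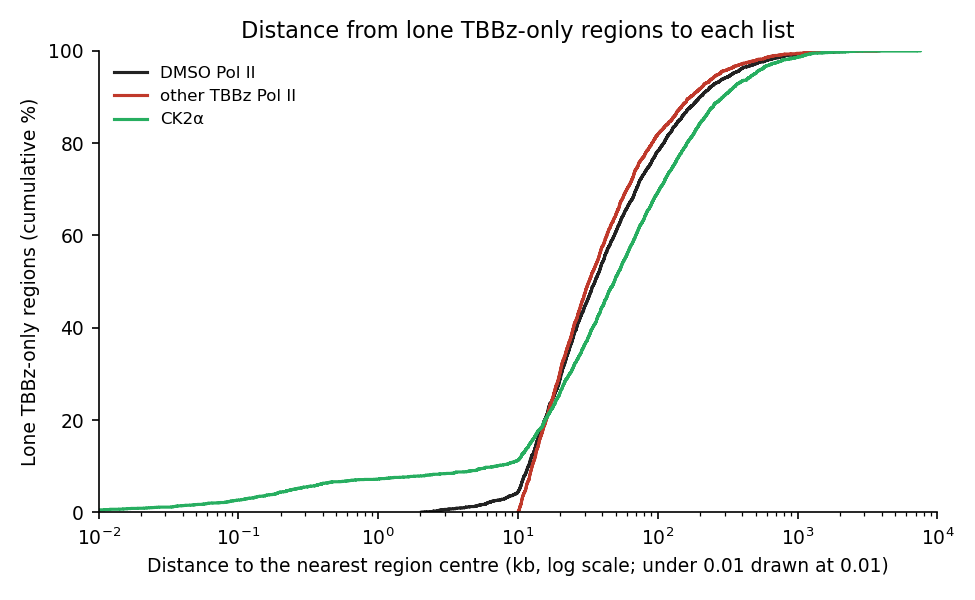
Cumulative share of the 3218 lone TBBz-only regions (vertical axis, %) against the distance to the nearest DMSO Pol II, other TBBz Pol II and CK2α centre (horizontal axis, kb, log scale). The TBBz line starts at 10 kb and the DMSO line at 2 kb because of the rule, while the CK2α line reaches 7.21% at 1 kb and 9.17% at 5 kb.

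Of the 144 DMSO neighbours within 10 kb, 135 had no TBBz region within 2 kb. The rule largely fixes this, since a TBBz partner of such a DMSO region would mostly lie within 10 kb of the lone TBBz-only region. The 5 regions farthest from DMSO were chr4:62238526-62238726 (3868972 bp), chr13:63640023-63640223 (2668299 bp), chr4:181370725-181370925, chr2:124792040-124792240 and chrX:92928399-92928599, all between 81.4 and 98.8% of the list. Of these, chr13:63640023-63640223 had 2 CK2α regions within 50 kb and the other four had none.

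The limits of the rule cut through a continuum. Just inside the DMSO limit were chr16:8741755-8741955 at 2036 bp and chr1:157092964-157093164 at 2056 bp, and just outside it was chr16:70696259-70696459 at 1989 bp. Just inside the spacing limit was chr5:140474154-140474354 at 10009 bp, and just outside it was chr12:12956224-12956424 at 9996 bp. These regions stood between 80.2 and 96.1% of the list, except for chr1:157092964-157093164 at 76.5%.

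CK2α was seldom found beside lone TBBz-only regions. A CK2α centre lay within 1 kb of 232 of them, which is 7.21% (6.34 to 8.16%), against 42.2% of all TBBz regions. A CK2α region overlapped 143 of them by at least 1 bp (4.44%, 3.76 to 5.21%), against 19.4% of all TBBz regions. For 1580 of them (49.1%, 47.4 to 50.8%) no CK2α centre lay within 50 kb, against 23.8% of all TBBz regions. This share was 38.6% for lone DMSO-only regions (36.4 to 40.8%), 26.5% for TBBz-only regions in strings and 24.7% for lone shared regions. Lone shared regions, which stood at a median place of 39% of the list, had CK2α within 1 kb in 52.6% of cases (51.7 to 53.6%). TBBz-only regions in strings had it in 6.29% (5.27 to 7.44%), an interval that overlaps that of the lone ones. Lone DMSO-only regions had it in 15.3% (13.7 to 16.9%), against 47.5% of all DMSO regions. The rule keeps CK2α regions with DMSO Pol II within 1 kb away from TBBz-only regions. It does not keep them from lone shared or lone DMSO-only regions, so part of these gaps is set by the choice. With Pol II lists of equal length the shares were 8.27% for lone TBBz-only (7.05 to 9.61%) and 14.9% for lone DMSO-only regions (13.6 to 16.4%).

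The CK2α share was also lower than that of lone shared regions from the same part of the list. CK2α presence fell along the list among lone shared regions, from 78.2% in the first 10% (75.9 to 80.4%) to 24.0% between 60 and 70% (21.4 to 26.8%) and 12.8% in the last 10% (9.87 to 16.2%). Among lone TBBz-only regions it was 8.17% between 60 and 70% (5.13 to 12.2%), 9.46% between 70 and 80% (7.26 to 12.1%), 7.30% between 80 and 90% (5.74 to 9.12%) and 6.05% in the last 10% (4.81 to 7.49%). In each of these 4 parts of the list the interval lay below that of the lone shared regions. The rule sets this gap in part, and matching by place does not remove that. Over the whole list, 5518 of 5519 CK2α regions beside lone shared regions had a DMSO centre within 2 kb. Beside lone TBBz-only regions it was 0 of 232. In the last 10% the shares of 6.05 and 12.8% came from 78 of 1289 and 58 of 453 regions. Lone DMSO-only regions fell along their own list as the shared ones did, from 23.0% between 60 and 70% (16.0 to 31.4%) to 11.6% in the last 10% (9.52 to 14.0%). Lone DMSO regions with a TBBz centre within 2 kb had 27.9% (25.2 to 30.7%) and 14.2% (11.7 to 17.0%) there. The intervals of these 2 kinds of DMSO region overlapped in all 4 parts.

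**Figure D3:**
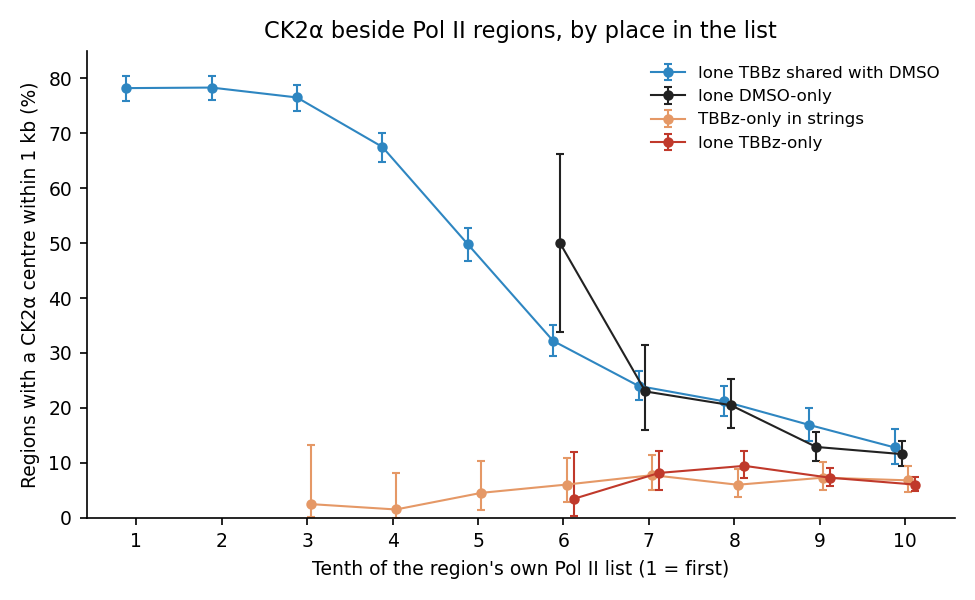
Share of regions with a CK2α centre within 1 kb (vertical axis, %) in each successive 10% of the region's own Pol II list (horizontal axis), with exact 95% binomial intervals; parts with fewer than 40 regions are left out. Lone shared regions fall from 78.2 to 12.8%, while lone TBBz-only regions stay between 3.45 and 9.46%.

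The share among lone TBBz-only regions also changed little with the distance to DMSO Pol II. It was 9.72% where a DMSO centre lay between 2 and 10 kb (5.42 to 15.8%), 7.74% between 10 and 20 kb (5.97 to 9.83%), 7.23% between 20 and 50 kb, 7.09% between 50 and 100 kb and 6.15% beyond 100 kb (4.49 to 8.20%), with overlapping intervals throughout. Lone DMSO-only regions had CK2α in 12.8% of cases where the nearest TBBz centre was 2 to 10 kb away (7.74 to 19.4%), in 19.7% between 10 and 20 kb (16.7 to 22.9%), in 15.5% between 20 and 50 kb (12.8 to 18.5%), in 12.6% between 50 and 100 kb (9.13 to 16.8%) and in 7.20% beyond 100 kb (4.25 to 11.3%). The intervals of both kinds of lone region overlapped between 2 and 10 kb, between 50 and 100 kb and beyond 100 kb, and did not overlap between 10 and 50 kb. No CK2α library of TBBz-treated cells was analysed here. The treatment labels name no inhibitor for the CK2α and DMSO libraries, but the source label of both Pol II libraries mentions TBBz.

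**Figure D4:**
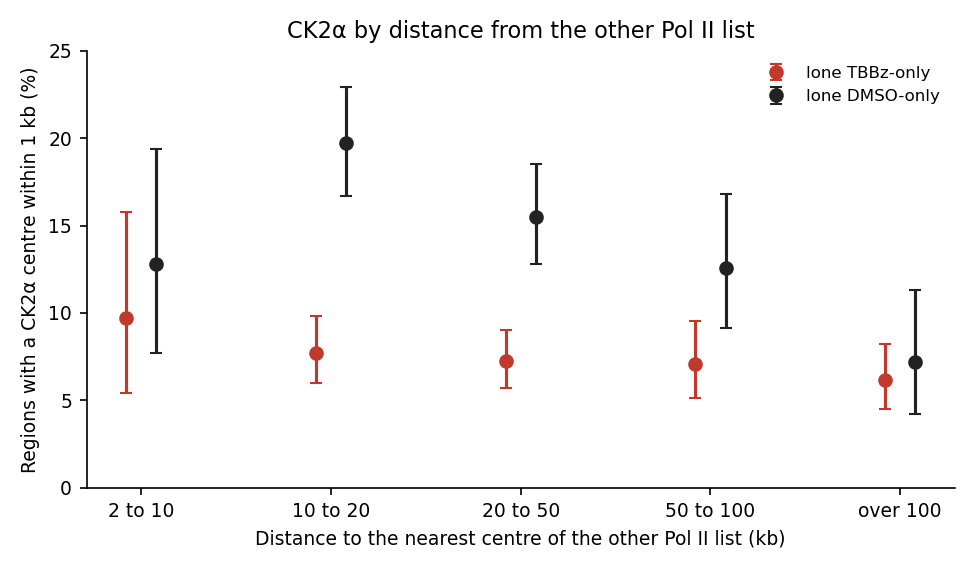
Share of lone TBBz-only and lone DMSO-only regions with a CK2α centre within 1 kb (vertical axis, %) by distance to the nearest centre of the other Pol II list (horizontal axis, kb), with exact 95% binomial intervals. The widest gap is between 10 and 20 kb, with 7.74 against 19.7%.

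The CK2α regions that did lie beside lone TBBz-only regions were late in their own list. The 232 CK2α regions within 1 kb of one made up 1.73% of the 13382 in the CK2α list. Their median place in the CK2α list was 78.4% (74.7 to 80.8%), against 45.5% for CK2α beside lone shared regions (44.5 to 46.7%) and 61.9% beside lone DMSO-only regions (58.0 to 64.6%). Beside TBBz-only regions in strings it was 68.5% (59.3 to 75.6%), an interval that overlaps that of the lone ones. Where CK2α was within 1 kb of a lone TBBz-only region, the centres were close, at a median of 154.5 bp (126 to 187 bp), against 218 bp for lone shared regions (209 to 225 bp). The interval overlapped those beside TBBz-only regions in strings, at 134 bp (98 to 192 bp), and beside lone DMSO-only regions, at 139.5 bp (123 to 156 bp). The first 5 lone TBBz-only regions that overlapped CK2α were chr2:47572238-47572438, chr11:61717245-61717445, chr1:8908851-8909051, chr14:41424041-41424241 and chr8:120994892-120995092, at places 12238 to 16162. Of these, chr14:41424041-41424241 and chr8:120994892-120995092 had no other Pol II region of either list within 50 kb.

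Lone TBBz-only regions were densest on gene-rich chromosomes but took a smaller share of the TBBz list there. There were 2.12 of them per Mb on chromosome 17, 1.88 on chromosome 19 and 1.52 on chromosome 22, and 0.0678 on chromosome Y. Across the 24 chromosomes their density had Pearson's r = 0.796 and Spearman's rho = 0.777 with protein-coding genes per Mb (RefSeq gene numbers of GRCh38.p14 over the hg19 span of the lists), while for all TBBz regions r was 0.981 and rho 0.905. Without chromosomes 19 and Y the r values were 0.853 and 0.953. As a share of a chromosome's TBBz regions they were most frequent on chromosome 18 (17.0%, 13.5 to 21.1%), chromosome 8 (16.9%, 14.5 to 19.4%) and chromosome 5 (15.8%, 13.7 to 18.0%). The lowest shares were on chromosome Y (4.82%, 4 of 83 regions), chromosome 19 (6.85%, 5.67 to 8.19%) and chromosome X (9.98%, 7.74 to 12.6%). This share fell with gene density, with r = -0.439 and rho = -0.615 over all chromosomes and r = -0.653 and rho = -0.811 without 19 and Y. A high density of regions leaves fewer of them standing alone by construction, and chromosomes share 1 library and its depth.

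**Figure D5:**
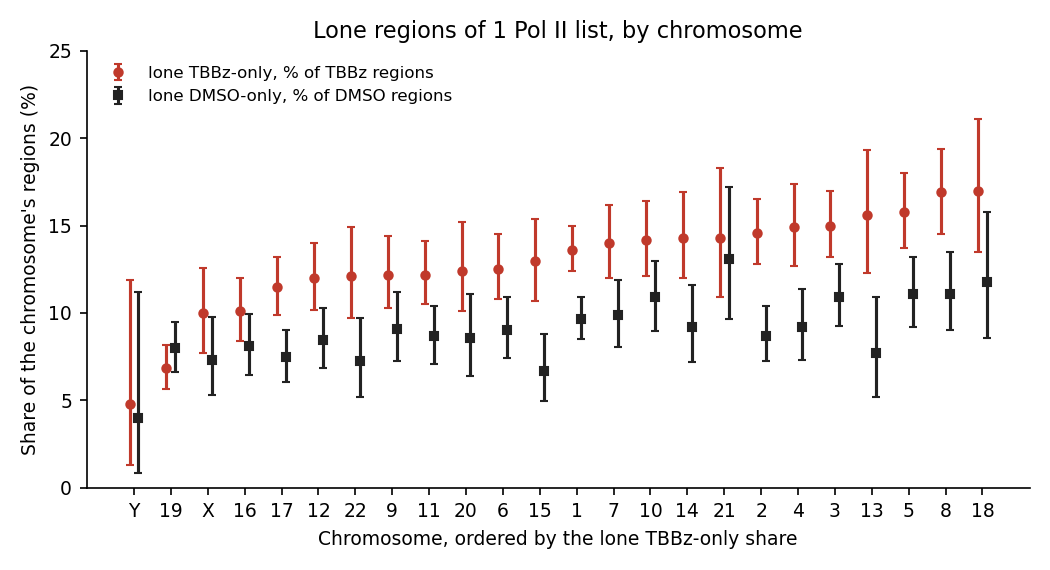
Lone TBBz-only regions as a share of TBBz regions and lone DMSO-only regions as a share of DMSO regions (vertical axis, %) for each chromosome (horizontal axis, ordered by the TBBz share), with exact 95% binomial intervals. The TBBz share ranges from 4.82% on Y to 17.0% on 18, and chromosome 19 is the only one where it is below the DMSO share (6.85 against 7.97%), as the lists were deposited.

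Lone TBBz-only regions were spread over many windows, often more than 1 to a window. Of 2465 windows of 1 Mb with a TBBz region, 1582 held at least 1 and 781 held exactly 1, so that 2437 of the regions shared a window with another. Windows with 5 or more numbered 108. The highest count was 9, in chr11:61000001-62000000, chr13:113000001-114000000 and chr21:46000001-47000000, which also held 39, 29 and 25 TBBz regions and 33, 19 and 20 DMSO regions. Along the chromosomes, 2039 stood between TBBz regions of other kinds, and 386 pairs and 125 longer series followed each other without another TBBz region between. Series in this order are named after their lengths and contents were seen. The longest had 6 regions over 3496 kb, chr3:5256605-8752262, with 1 DMSO and 2 CK2α regions. The series of 5 numbered 5 and ranged from 156.7 kb, chr7:98520389-98677048, with 1 DMSO and no CK2α region inside, to 1043 kb, chr14:38293145-39335861, with 10 DMSO and 3 CK2α regions inside. Stretches of 2 Mb or more that hold none of the 3 kinds of region had 323 of them at a distance of up to 1 Mb (10.0%), against 9.18% of all TBBz regions. The nearest TBBz neighbour of a lone TBBz-only region was itself TBBz-only in 26.2% of cases (24.7 to 27.8%), against 20.6% for lone shared regions (19.8 to 21.3%).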

How the data were processed

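Pol II and CK2α ChIP-seq regions came from 3 libraries, grouped by the antibody and treatment labels; the source label mentions TBBz for both Pol II libraries, and an exchange of the libraries would exchange the lone sets. Alignment with Bowtie, peak calling with HOMER and the build hg19 are per the submitters' processing notes; the tools carry no version there. Regions were called by the authors in each library, per the file headers, with a size of 200 bp, a false discovery rate of 0.001, and no control library is named. The deposited score is 1 for every region, so list order was used instead; the rank correlation of order with the number in the region's name was at least 0.997 on each chromosome of the TBBz list. Starts were raised by 1 for printing. The DHT time of the CK2α cells is 2.5 hours in the treatment label and 90 min in the protocol.

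Distances were taken between region centres. The lists gave 13382, 21819 and 24782 regions for CK2α, DMSO and TBBz. Regions were named by rule: the first 10, the 5 farthest from DMSO, the first 5 overlapping CK2α, those nearest the limits, and the highest and lowest chromosomes and windows. The regions and the comparisons were chosen with earlier results of these data known. Alternatives changed the distances, list lengths, list ends, chromosomes and CK2α nearness. The distance scripts were tested on simulated data. The shares count regions of 1 library, which are not independent of each other, and duplicate tags of PCR origin were not examined here. The tools were SciPy 1.17.1, pandas 2.3.3, NumPy 2.4.6 and Matplotlib 3.10.9 under Python 3.11.15.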

Additional observations from a re-analysis of the deposited data

How the results depend on the processing

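CK2α was less frequent beside lone TBBz-only than beside lone DMSO-only regions in 12 of 12 settings, and 38 of 57 alternative values stayed within the counting interval, or for counts within 1.5 times. The settings reuse the same 3 libraries, so their number is not repeated evidence. In each of them the CK2α library, like the DMSO library, has a treatment label without an inhibitor. With lists of equal length, the number of lone TBBz-only regions was 1851, their CK2α share 8.27%, their median place 89.7% and their share with DMSO within 10 kb 5.89%. Without the last 10% of both lists the CK2α shares were 9.14% (TBBz-only) and 17.3% (DMSO-only), the median place 88.6% and the DMSO share 3.75%. With CK2α overlap the CK2α shares were 4.44% and 9.89%, and within 5 kb 9.17% and 18.0%. With a spacing of 5 kb the median place was 86.2% and the DMSO share 19.7%; with 20 kb the DMSO share was 3.08%, and 1307 lone DMSO-only regions had CK2α in 13.5%. With the other Pol II list within 1000 or 5000 bp the DMSO share was 5.85% or 3.15%. Shortening or widening a limit changes these by construction in part; otherwise the cause was not tested. A limit of 10000 bp to the other list was added after the data were seen, and its values stayed within those bounds. Promoter widths were not run, for lack of an hg19 annotation. No paired analysis was possible because there is 1 library per group. The part of depth was not tested, since tag positions were not used here.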
